A study of Homo sapiens with 62 samples.

Results

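The genes described here were 7 transcription factors of the ETS family, ELF3, EHF, SPDEF, ELF1, ELF4, ETS1 and ETS2, found by gene name among the 29794 genes of the deposited count tables. ELF3, EHF and SPDEF are expressed mainly in epithelia, and each of the other 4 belongs to a branch of the family with wider expression. SLAM-seq was performed in 2 human pancreatic ductal adenocarcinoma (PDAC) lines, AsPC-1, used as a model of classical PDAC, and T3M-4, used as a model of basal-like PDAC. In SLAM-seq, cells incorporate 4-thiouridine (4sU) into the RNA they make, here during the last 2 h before harvest, and alkylation of that RNA leaves T>C conversions in the reads. For each gene, reads with T>C conversions therefore mark newly made RNA, and all reads count the RNA present.

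ETS factors share a winged helix-turn-helix domain that binds DNA around a GGAA core. ELF3 and EHF are expressed in glandular and stratified epithelia, where they activate differentiation genes, and SPDEF is best known for driving mucus-secreting goblet cells. ELF1 and ELF4 are close paralogs, and ETS1 and ETS2 carry a Pointed domain through which the ERK kinases downstream of RAS regulate them. KLF5, the factor depleted in this study, is a Krüppel-like zinc finger factor of epithelial cells that binds GC-rich and CACCC-type elements.

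All 62 libraries came from cells of the genotype FKBP12-F36V-FLAG-KLF5 with a guide RNA against the endogenous KLF5 gene (sgEndogenousKLF5), so every control carried the degron-tagged KLF5 too. The tagged copy was delivered by lentivirus and the cells were drug-selected as pools, which limits them as a model of KLF5 at its own locus. dTAG cells received the degrader dTAGv-1 for 4 h and NEG cells its inactive analog dTAGv-1-NEG, with 10 libraries each in AsPC-1 and 4 each in T3M-4. CB-6644, which blocks the ATPase activity of RUVBL1 and RUVBL2, was compared with DMSO after 4 h (5 against 5 libraries in AsPC-1, 4 against 4 in T3M-4) and after 12 h (4 against 4 in AsPC-1). NVP-2, an inhibitor of the transcription elongation kinase CDK9, was given for 4 h (4 libraries per line) and compared with the same DMSO 4 h libraries as CB-6644. Replicates carry an experiment number and a library number. The study counts 3 experiments in AsPC-1 and 2 in T3M-4 as independent, and separate cultures within an experiment are not stated, so p-values measure the spread between these libraries, part of which may be technical. In AsPC-1 the NVP-2 libraries are labelled batch 2 and the DMSO 4 h libraries batch 1, so that comparison alone does not separate NVP-2 from batch. Batch 2 controls of other treatments (NEG experiment 3 and DMSO 12 h) were set beside it in T>C reads only.

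T>C totals per library spanned 2240998 to 18311982 reads (AsPC-1) and 3714015 to 27982537 reads (T3M-4), with the lowest totals in NVP-2 libraries (8296433 and 13562612 were the lowest elsewhere), and all-read totals spanned 82676553 to 244524608. The all-reads column of AsPC-1 dTAG library 3.1 repeated the T>C values of DMSO 12 h library 2 and was left out, so all-read and share values rest on 9 AsPC-1 dTAG libraries. In DMSO 4 h libraries, all 5 epithelial markers exceeded 1 CPM (library-scaled counts, here of all reads) in both lines, as did 5 of 5 classical and 1 of 5 basal-like markers in AsPC-1 and 2 of 5 classical and 5 of 5 basal-like markers in T3M-4. Fibroblast and leukocyte lists had 1 of 5 markers over 1 CPM in each line, and the endothelial list had 0 of 5. The AsPC-1 libraries were divided into 3 sets, a number chosen for the clustering, that were defined from the data and cross the treatments. Set A has 17, B 17 and C 8 libraries, and C holds exactly the dTAG, NEG, CB-6644 and DMSO 4 h libraries of experiment 2. Set B was named as the set of highest mean DCLK1, a kinase known as a tuft cell marker, so its DCLK1 level is no separate evidence. DCLK1 was at 13.6 to 38.6 T>C CPM in set B and at 0 to 1.93 in the others. T>C reads of KLF5 rose after dTAG (0.60 ± 0.11 on the log2 scale in AsPC-1, 0.90 ± 0.15 in T3M-4, adjusted p = 0.00284 and 0.0258), which does not check degradation because the degrader acts on the protein. RUVBL1 and RUVBL2 passed no test after dTAG or CB-6644.

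On GRCh38, ELF3 (ENSG00000163435.16) lies at chr1:202007945-202017183 on the plus strand, and its reads were counted in a single 3′UTR block at 202015321-202017183. EHF (ENSG00000135373.13) lies at chr11:34621093-34663288, plus strand, with its longest 3′UTR block at 34658929-34663288. ETS2 (ENSG00000157557.13) is at chr21:38805183-38824955, plus strand (3′UTR 38822887-38824955), and ETS1 (ENSG00000134954.14) at chr11:128458761-128587558, minus strand (3′UTR 128458761-128462541). ELF4 (ENSG00000102034.18) is at chrX:130063955-130110716, minus strand (3′UTR 130063955-130066723). ELF1 (ENSG00000120690.16) is at chr13:40931924-41061440, minus strand, with 6 3′UTR blocks of which the longest is 40931924-40934028. SPDEF (ENSG00000124664.11) is at chr6:34537802-34556333, minus strand, with a 3′UTR of 475 bases at 34537802-34538276. No 3′UTR of another gene overlapped these blocks.

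Because KLF5 was the depleted factor, the members' promoters were read for a KLF-type motif (GGGNGTGG) and for an ETS-type motif (CNGGAAGT), on both strands. RefSeq windows from 250 bases before to 50 after a transcript start were at hand for 6 of the 7 members, 12 windows in all. The KLF-type motif was in 2 of the 12 windows, against 17.2% of 35116 promoters of the same length, and the ETS-type motif in 1 of 12, against 9.37%. The windows of ELF3, EHF, SPDEF and ELF1 held neither, which says only that these letters are absent there. The ELF3 window is shown because ELF3 is the member whose reads fell after KLF5 depletion, and the other three because they hold the matches. They are printed from 250 bases before to 30 after the start, 5′ to 3′ on the gene's strand, RefSeq sequence on GRCh38.p14, and capitals mark a motif match.
ELF3, chr1:202010337-202010616, plus strand: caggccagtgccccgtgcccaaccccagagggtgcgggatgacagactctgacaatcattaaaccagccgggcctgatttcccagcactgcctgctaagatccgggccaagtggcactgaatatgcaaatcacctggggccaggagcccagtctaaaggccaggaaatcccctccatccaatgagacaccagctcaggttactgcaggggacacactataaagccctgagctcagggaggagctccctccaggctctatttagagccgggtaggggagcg
ETS2, chr21:38804933-38805212, plus strand: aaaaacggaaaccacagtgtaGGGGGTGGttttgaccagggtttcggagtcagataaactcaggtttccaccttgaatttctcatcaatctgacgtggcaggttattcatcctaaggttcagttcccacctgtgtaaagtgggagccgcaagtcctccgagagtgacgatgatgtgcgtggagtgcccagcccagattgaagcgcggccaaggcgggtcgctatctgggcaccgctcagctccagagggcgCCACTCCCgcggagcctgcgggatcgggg
ELF4, chrX:130111829-130112108, minus strand: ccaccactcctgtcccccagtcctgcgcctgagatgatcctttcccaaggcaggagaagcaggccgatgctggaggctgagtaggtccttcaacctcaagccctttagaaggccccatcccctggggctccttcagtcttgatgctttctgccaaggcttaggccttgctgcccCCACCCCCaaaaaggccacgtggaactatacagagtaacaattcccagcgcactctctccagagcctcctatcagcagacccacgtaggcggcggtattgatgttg
ELF4, chrX:130086904-130087183, minus strand: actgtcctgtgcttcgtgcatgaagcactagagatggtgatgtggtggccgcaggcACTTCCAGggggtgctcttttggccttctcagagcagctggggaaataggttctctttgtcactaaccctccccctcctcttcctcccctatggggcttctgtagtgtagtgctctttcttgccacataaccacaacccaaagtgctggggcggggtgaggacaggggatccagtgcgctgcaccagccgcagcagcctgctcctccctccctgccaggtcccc
The ETS2 window holds GGGGGTGG at position -229 from the start on the gene's strand and CCACTCCC at position 2, the motif on the opposite strand. The first ELF4 window holds CCACCCCC at -76, the KLF-type motif on the opposite strand, and the second ACTTCCAG at -194, the ETS-type motif on the opposite strand. Neither ETS2 nor ELF4 passed the test in T>C reads or all reads after dTAG in either line.

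Levels in the solvent controls set the scale for what follows. T>C CPM are 3′ end reads scaled to the library total, so a gene is set beside itself across groups and the order of genes is given on this scale only. In AsPC-1 DMSO 4 h libraries, ETS2 stood highest at 448 ± 144 T>C CPM (mean ± SD, n = 5). EHF (193 ± 43.5), ELF3 (192 ± 59.2) and ETS1 (172 ± 39.6) followed and did not differ from each other beyond their spread. ELF4 (66 ± 21.6) and ELF1 (51.4 ± 8.06) were lower, again within a spread of each other. In T3M-4 DMSO libraries ETS2 was again the highest at 620.4 ± 157 (n = 4), followed by EHF at 179 ± 38.8, ETS1 at 125 ± 37.2, ELF3 at 98.1 ± 23.6, ELF1 at 54.2 ± 6.36 and ELF4 at 31.6 ± 7.15. EHF and ETS1 overlapped there, as did ETS1 and ELF3.

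SPDEF was near the floor of the assay. Its T>C CPM ran from 0 to 2.15 over the AsPC-1 libraries and from 0 to 1.94 over the T3M-4 libraries, and a count of 0 allows up to 3 reads. All its counts in both lines were even numbers, so its counting error may be larger than the counts imply. It passed the filter on low counts in 4 of the 7 treatment comparisons of T>C reads and in none of the 3 others (AsPC-1 dTAG, CB-6644 4 h and NVP-2), where 6 of 7 members were tested. SPDEF passed no edgeR test of T>C reads or of all reads with the default scaling, and with scaling by all-read totals it was called in T3M-4 with NVP-2 (-3.71, adjusted p = 0.0201). Its log2 fold changes in T>C reads were 0.57 ± 0.60 with CB-6644 in T3M-4, -0.78 ± 1.52 with CB-6644 at 12 h in AsPC-1 and -0.83 ± 1.19 with NVP-2 in T3M-4, and the difference between the lines did not pass either (adjusted p = 0.34). In all reads of T3M-4 it stood at 0.726, 0.661, 0.233 and 0.492 CPM in NEG and 0.753, 0.572, 0.21 and 0.0113 in dTAG libraries.

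**Figure D1:**
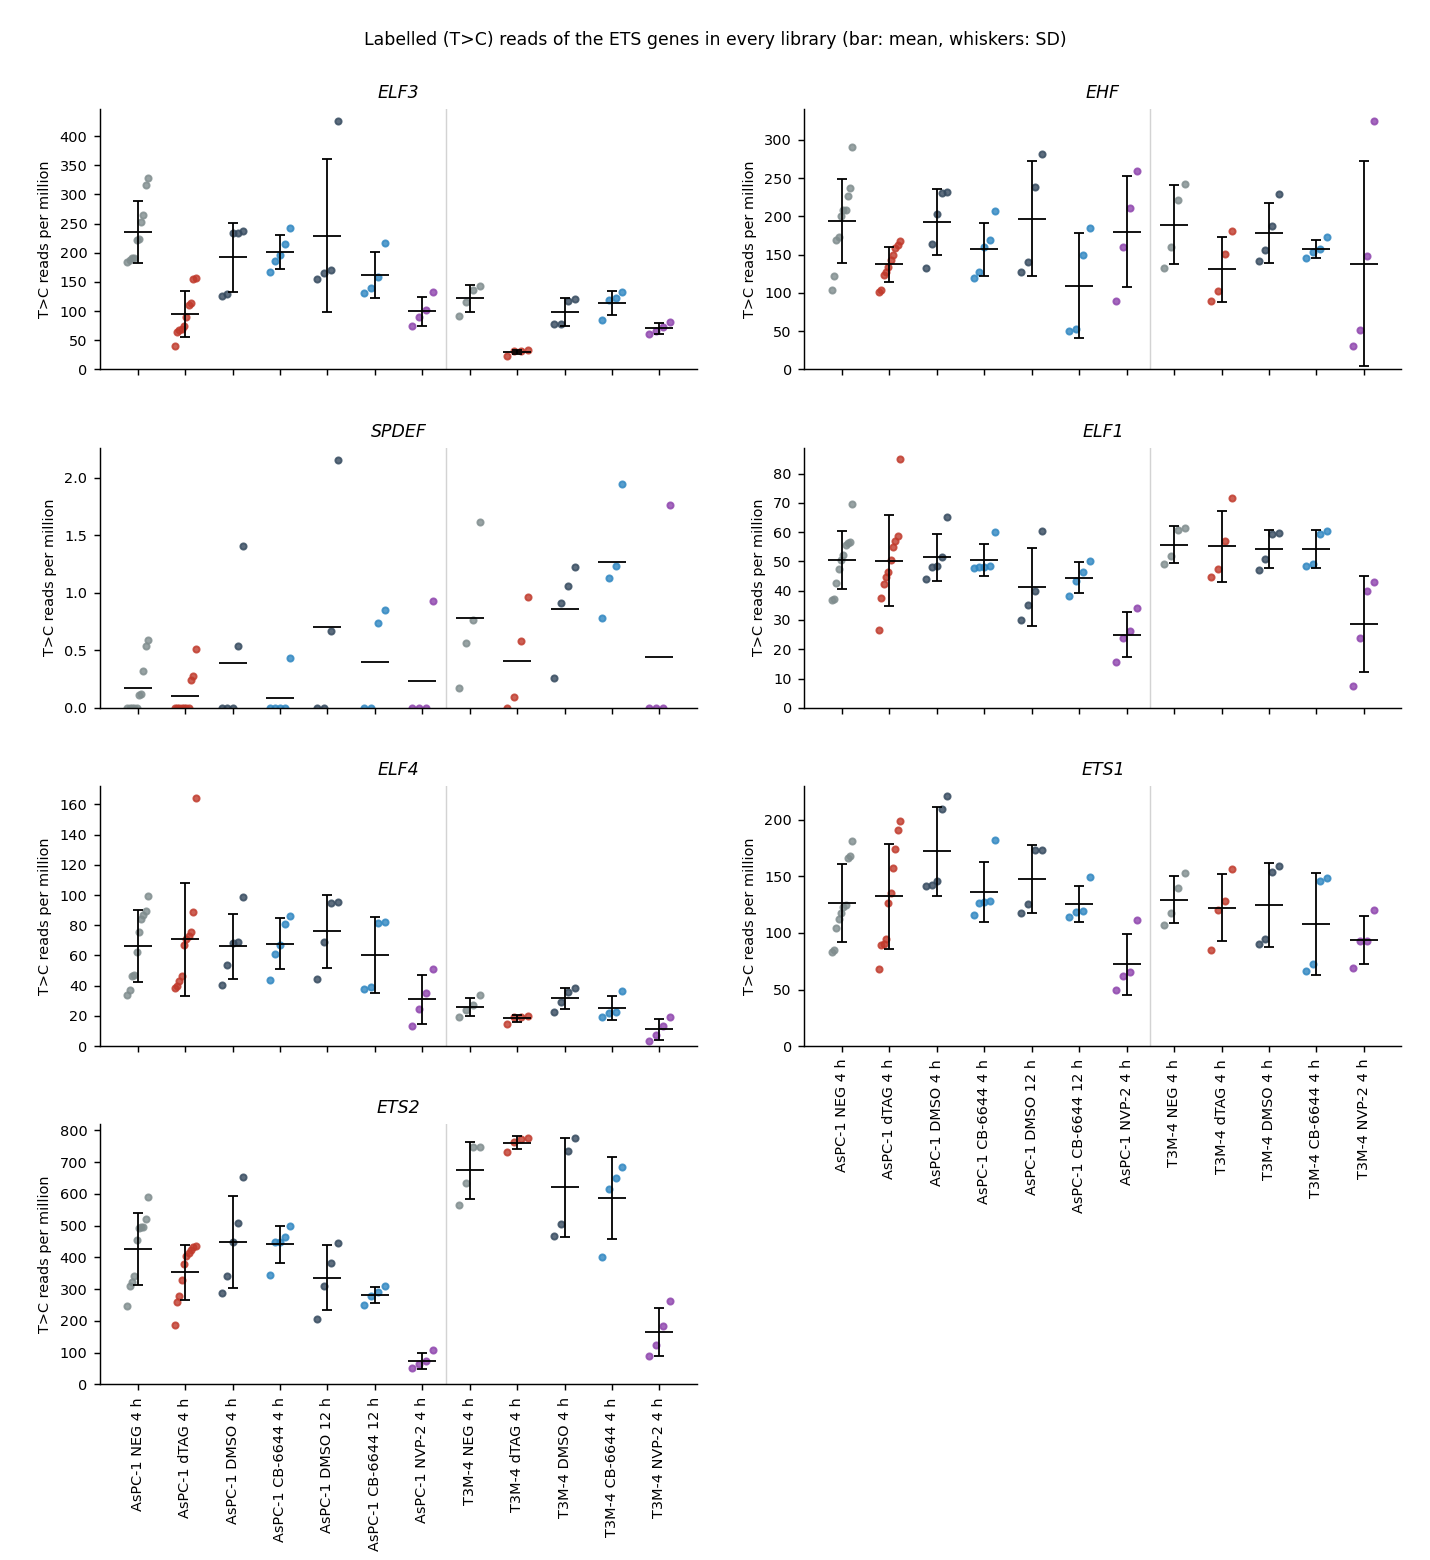
T>C CPM (library-scaled T>C reads, linear y axis from 0) of the 7 ETS genes, 1 panel per gene, with 1 point per library in the 12 groups, sorted by value within a group. Bars are group means and whiskers SD, with no whiskers for SPDEF. ELF3 dTAG points lie below every NEG point of the same line, and ETS2 NVP-2 points lie below every DMSO 4 h point of the same line.

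The labelled share is the percentage of a gene's reads in a library that carried T>C conversions. New RNA read without a conversion is missed, so the share is not the fraction of RNA made during labelling. The order of genes is given on this scale only. In AsPC-1 DMSO 4 h libraries it was 46 ± 3.64% for ETS2, at the 96.5th percentile of genes, against 15.1% for the median gene. ELF3 followed at 36.1 ± 1.47% (90.7th percentile) and ETS1 at 33.7 ± 3.64% (88.4th). ELF1 (27.6 ± 3.09%) and ELF4 (26.8 ± 4.5%) lay close together, and EHF was lowest at 21 ± 2.03% (67.7th percentile). All 6 genes were thus above the median gene. In T3M-4 DMSO libraries ETS2 reached 59.6 ± 6.43% (95.8th percentile) and ELF3 42.8 ± 2.76% (89th), with the median gene at 17.3%. ELF1 stood at 39.8 ± 3.16%, EHF at 30.3 ± 2.46%, ETS1 at 29.7 ± 2.5% and ELF4 at 27.6 ± 4.12%. EHF, ETS1 and ELF4 did not differ from each other beyond their spread.

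KLF5 degradation was examined first, to ask whether new transcription of the ETS genes changed when KLF5 was lost. ELF3 fell in both lines, and no other member passed the test in T>C reads in either. In AsPC-1, ELF3 T>C CPM in NEG libraries ran from 185 to 328 with a median of 222 (mean 236 ± 52.9, n = 10). In dTAG libraries they ran from 39.9 to 157 with a median of 82.4 (mean 94.3 ± 39.3, n = 10). All 10 dTAG libraries lay below the lowest NEG library. The log2 fold change was -1.31 ± 0.21 (mean fit ± SE, edgeR quasi-likelihood test, adjusted p = 0.000535), or 40.3% of the NEG level. ELF3 was the 1 member called of 6 tested (2 at an unadjusted p under 0.05), where 2.4% (281 of 11696) of all genes were called at an adjusted p under 0.05. Bulk libraries do not tell less ELF3 RNA per cell from fewer cells that make it.

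In T3M-4, the ELF3 T>C CPM of the 4 NEG libraries were 91.5, 116, 143 and 137, and those of the 4 dTAG libraries 31.9, 32.5, 23.7 and 31.6. The groups did not overlap, and the lowest NEG library was well above the highest dTAG library. The log2 fold change was -2.04 ± 0.21 (adjusted p = 0.00517), or 24.4% of the NEG level. ELF3 was again the 1 member called, here of 7 tested, with 0.834% (112 of 13424) of all genes called. The effect in T3M-4 minus that in AsPC-1 was -0.70 ± 0.35 (adjusted p = 0.877 in edgeR, 95% interval -1.39 to -0.0031), so a larger fall in T3M-4 was not shown. For that difference 0 of 6 members were called by edgeR or DESeq2 and 0 had an unadjusted p under 0.05, with 0.0426% (6 of 14088) of all genes called.

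Each experiment showed the same direction for ELF3. In AsPC-1 experiment 1 the mean T>C CPM was 89.8 in dTAG and 264 in NEG libraries (log2 ratio -1.56). In experiment 2 the means were 156 and 238 (-0.61), and in experiment 3, labelled batch 2, 67.9 and 207 (-1.61). Experiment 2 thus showed the smallest fall. In T3M-4 the means were 32.2 and 104 in experiment 1 (log2 ratio -1.69) and 27.7 and 139.8 in experiment 2 (-2.34). The call in AsPC-1 was lost without experiment 1 (-1.15, adjusted p = 0.149), in batch 2 alone (-1.62, 0.0535) and, after the data were seen, when counts were summed per experiment (-1.18, 0.344), and was kept in batch 1 alone (-1.19, 0.0279). In T3M-4 it held in batch 1 (-1.68, 0.0482) and in batch 2 (-2.34, 0.0166), and was lost when counts were summed per experiment (-2.02, 0.87). With the summed counts blocked by experiment, which paired the libraries, ELF3 was called in both lines, at -1.26 in AsPC-1 (adjusted p = 0.0303) and -2.01 in T3M-4 (0.00252). Scaled by all-read totals, where the median gene was at -0.22 (AsPC-1) and 0.11 (T3M-4), ELF3 stood at -1.57 (0.000137) and -1.91 (0.00768). With experiment as a replicate block, ELF3 changed by -1.38 in AsPC-1 (adjusted p = 5.77e-05) and by -2.02 in T3M-4 (0.000372), and 447 and 354 genes of all were called.

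**Figure D2:**
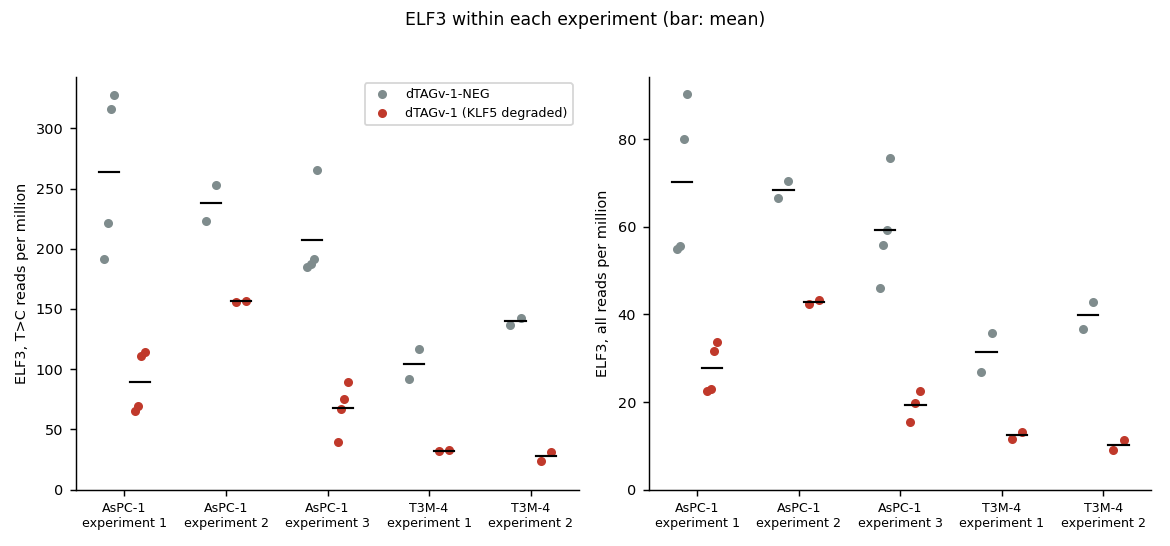
ELF3 T>C CPM (left panel) and all-read CPM (right panel) of each dTAG and NEG library by experiment and line, with 1 point per library and bars at the means. Within each of the 3 AsPC-1 and 2 T3M-4 experiments, the dTAG points lie below the NEG points.

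Total ELF3 RNA fell as well. All-read CPM of ELF3 in AsPC-1 ran from 46.1 to 90.2 in NEG libraries (mean 65.5 ± 13.6, n = 10) and from 15.4 to 43.2 in dTAG libraries (28.2 ± 9.98, n = 9), with no overlap. The log2 fold change in all reads was -1.22 ± 0.18 (adjusted p = 0.00129), with 1 of 7 members and 0.797% (111 of 13931) of all genes called, and 229 genes with the experiment block. Without experiment 1 its adjusted p was 0.351. In T3M-4 the 4 NEG libraries held 26.9, 35.9, 36.7 and 42.8 all-read CPM of ELF3 and the 4 dTAG libraries 11.6, 13.1, 9.12 and 11.2, again with no overlap. The log2 fold change was -1.67 ± 0.19 (adjusted p = 0.0388), with 1 of 7 members and 0.0191% (3 of 15727) of all genes called, and 84 genes with the experiment block. The call did not survive leaving out any of the 8 libraries, which gave -1.78 to -1.57 with adjusted p from 0.0731 to 0.261.

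EHF, the closest relative of ELF3 among the members, was lower after dTAG on average but did not pass the test. Its T>C CPM in AsPC-1 ran from 104 to 291 in NEG libraries (mean 194 ± 54.8) and from 101 to 168 in dTAG libraries (137 ± 23.3), and the groups overlapped. The log2 fold change was -0.49 ± 0.15 (adjusted p = 0.115, unadjusted p = 0.00469 from edgeR). Log2 ratios of the experiment means were -0.65, -0.53 and -0.29 in experiments 1, 2 and 3. EHF passed when T>C reads were scaled by the all-read library totals, which moved the median gene to -0.22 and EHF below it (-0.71, adjusted p = 0.0215) and with the data-defined set and the experiment as a block (-0.44, 0.0455). In T3M-4 the NEG libraries held 222, 243, 160.3 and 132 T>C CPM of EHF and the dTAG libraries 151, 182, 89.8 and 103. The groups overlapped, although within each experiment both dTAG libraries were below both NEG libraries. EHF had a log2 fold change of -0.54 ± 0.28 there (adjusted p = 0.805), and the effect in T3M-4 minus that in AsPC-1 was -0.03 ± 0.32.

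The 4 members with wider expression had intervals that span 0 in AsPC-1. ELF1, which stood at 50.4 ± 10.0 T>C CPM in NEG and 50.3 ± 15.6 in dTAG libraries, had a log2 fold change of 0.01 ± 0.16 with a 95% interval of -0.31 to 0.33. ELF4 changed by 0.11 ± 0.26 (-0.39 to 0.61), ETS1 by 0.08 ± 0.19 (-0.30 to 0.46) and ETS2 by -0.26 ± 0.17 (-0.59 to 0.07), all with adjusted p of 0.633 or above. In T3M-4, ELF4 T>C CPM were 23.9, 19.5, 33.7 and 27.4 in NEG and 19.1, 14.9, 19.4 and 20.1 in dTAG libraries, with 1 dTAG library above the lowest NEG library. Its log2 fold change was -0.52 ± 0.22 (unadjusted p = 0.0391 from edgeR, adjusted p = 0.635). ELF1 (-0.03 ± 0.20), ETS1 (-0.09 ± 0.22), ETS2 (0.16 ± 0.16) and SPDEF (-0.91 ± 1.11) also missed the threshold. In all reads of T3M-4, ETS2 was at 133, 153, 158 and 164 CPM in NEG and at 171, 193, 183 and 167 in dTAG libraries, without overlap. The share of all genes without overlap was not counted, and the log2 fold change of 0.22 ± 0.15 did not pass (adjusted p = 1.0).

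The labelled share of the members moved after dTAG together with that of the whole library in AsPC-1. The library share averaged 9.3% in NEG and 8.0% in dTAG libraries, and the log2 odds of labelling changed by -0.33 for the median gene, with 32.4% (4515 of 13931) of genes called by limma. Against that background 5 of 7 members were called. ELF3 went from 34.7 ± 3.74% (n = 10) to 26.4 ± 1.86% (n = 9), a log2 odds change of -0.56 ± 0.10 (adjusted p = 0.000544), and ETS2 from 44.4 ± 2.99% to 36.6 ± 1.9% (-0.47 ± 0.08, 0.000334). EHF (-0.38 ± 0.12), ELF1 (-0.39 ± 0.14) and ELF4 (-0.38 ± 0.12) were the other three, and ETS1 (-0.44 ± 0.21) and SPDEF (0.46 ± 1.26) missed the threshold. With set and experiment as a block ETS1 was called as well (-0.37, adjusted p = 0.00205). All 5 calls were lost without experiment 1, and those of EHF, ELF1 and ELF4 without experiment 2. With each library centred on its median gene, 0 of 7 members were called, ELF3 changed by -0.24 (adjusted p = 0.299) and ETS2 by -0.15 (0.335).

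In T3M-4 the library share was 12.7% in NEG and 13% in dTAG libraries, and 0 of 7 members were called by limma (1 at an unadjusted p under 0.05), with 0.216% (34 of 15727) of all genes called. That 1 was ELF3, whose share was 46.2, 44.5, 49.5 and 39.3% in NEG and 38.3, 36.8, 35.6 and 35.4% in dTAG libraries. Every dTAG library was below every NEG library, and the log2 odds change of -0.50 ± 0.16 had an adjusted p of 0.524.

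**Figure D3:**
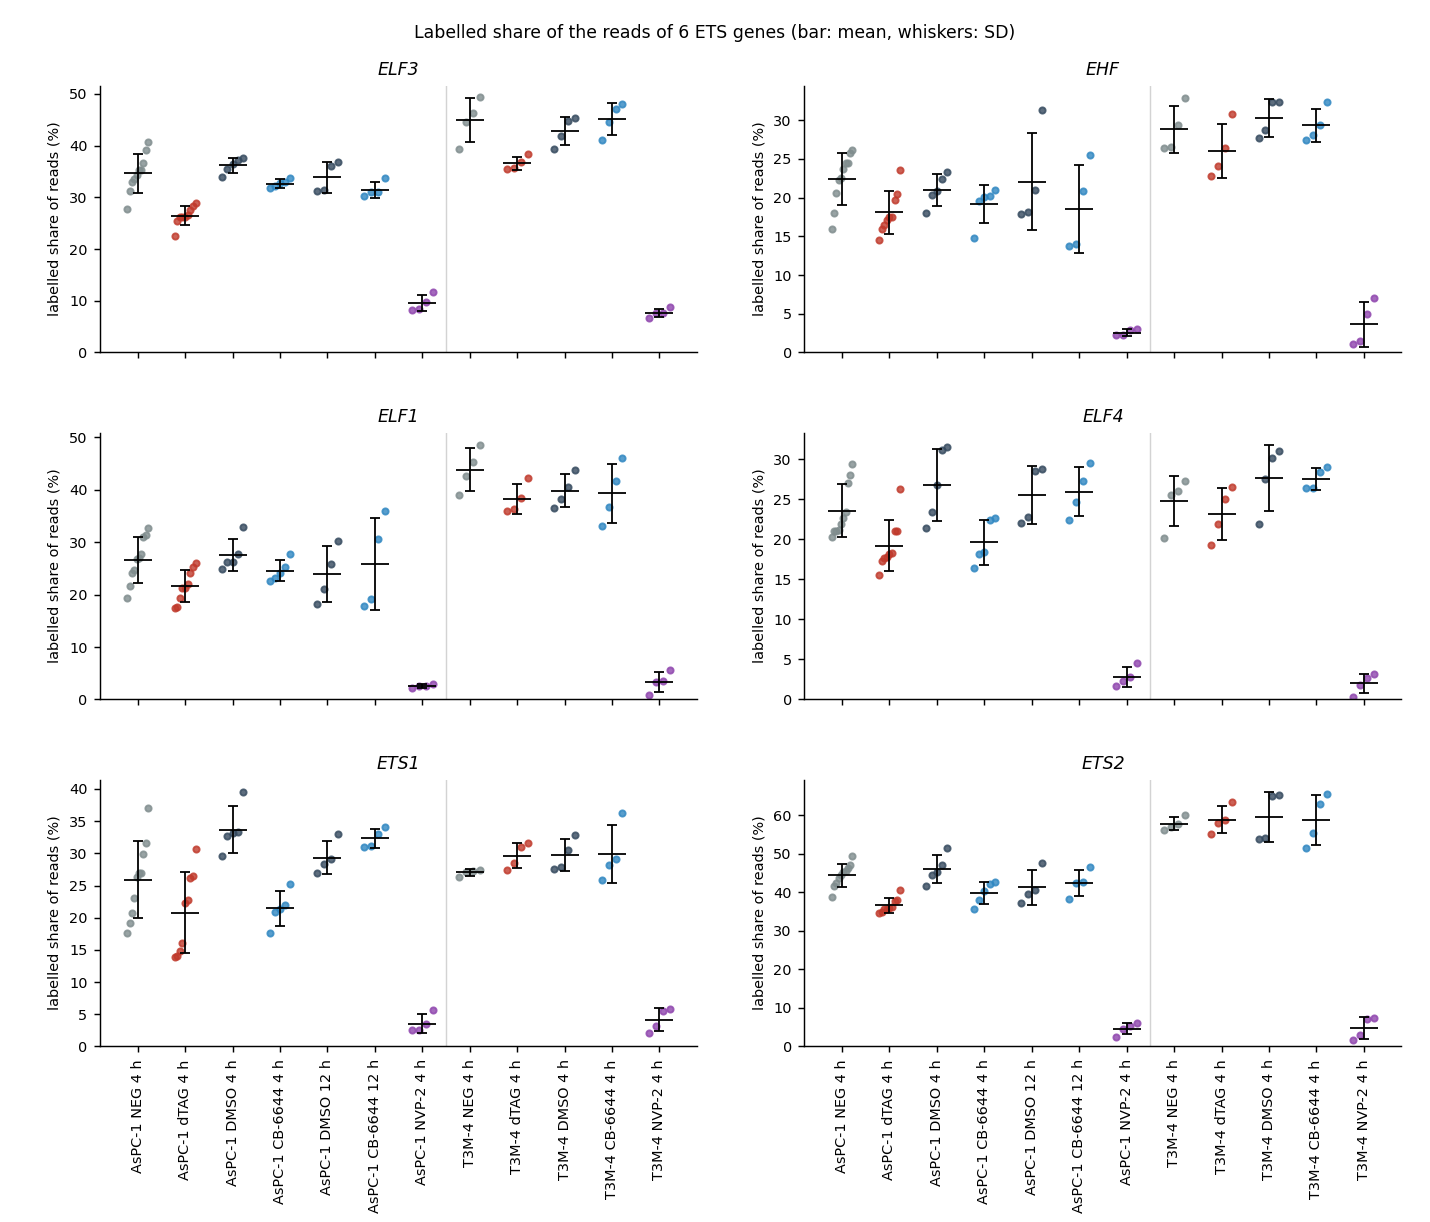
Labelled share (percentage of the gene's reads with T>C conversions, y axis) of 6 ETS genes, 1 panel per gene, with 1 point per library in the 12 groups and bars at group means with SD; SPDEF is left out for its low counts. In NVP-2 libraries every gene falls to a few percent, with ELF3 the highest at 9.53% in AsPC-1 and 7.69% in T3M-4.

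The CB-6644 comparison asked whether inhibiting RUVBL1/2 moves the same genes as losing KLF5. CB-6644 moved no member past the threshold in T>C reads or all reads, in either line or at either time. In T>C reads edgeR called 0 of 6 members in AsPC-1 at 4 h, 0 of 7 in T3M-4 and 0 of 7 in AsPC-1 at 12 h, 0 members had an unadjusted p under 0.05 in any of the 3, and DESeq2 called 0. The background was as low, with 0% (0 of 11649), 0% (0 of 13444) and 0% (0 of 12204) of all genes called by edgeR, 482, 569 and 473 at an unadjusted p under 0.05, and 1, 8 and 25 called by DESeq2. In all reads 0 of 7 members were called in each comparison by either tool, and 0 at an unadjusted p under 0.05, where 0% (0 of 13891), 0.0127% (2 of 15761) and 0% (0 of 14398) of all genes were called by edgeR and 5, 12 and 21 genes by DESeq2.

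The paper names ELF3 among the classical genes that CB-6644 suppressed in AsPC-1, citing RNA-seq and SLAM-seq together. Its RNA-seq with CB-6644 was at a later time than 4 h and was not analysed here. Its SLAM-seq figure shows replicates of a representative experiment tested with DESeq2, while libraries here were pooled over experiments. In the T>C reads at 4 h, edgeR called 0 of 11649 genes in AsPC-1 and 0 of 13444 in T3M-4. ELF3 was thus not called with CB-6644 at 4 h in either line, and the fall that the paper names was not seen in these pooled T>C reads. Whether it holds in the paper's own experiment and RNA-seq was not tested. In AsPC-1 its T>C CPM were 235, 234, 126, 238 and 129 in DMSO and 242, 185, 167, 216 and 196 in CB-6644 libraries. The DMSO values were the more scattered and spanned the CB-6644 values but 1, and the log2 fold change was 0.07 ± 0.21 with a 95% interval of -0.34 to 0.49. In T3M-4 they were 77.6, 77.9, 117 and 120.3 in DMSO and 122, 133, 84.2 and 119 in CB-6644 libraries, for 0.23 ± 0.22 (-0.21 to 0.66). Both intervals lie above the dTAG estimate of the same line. Tested as a difference of effects, the dTAG effect on ELF3 minus the CB-6644 effect was -2.24 ± 0.30 in T3M-4 (adjusted p = 0.00596), the 1 member called of 7 where 0.161% (23 of 14276) of all genes were called. In AsPC-1 it was -1.40 ± 0.34 and did not pass (adjusted p = 0.192). There edgeR called 0 of 6 members (1 at an unadjusted p under 0.05) and 0.0313% (4 of 12761) of all genes. ELF3 passed in AsPC-1 under DESeq2 (-1.38, 0.0241) and with the first replicate number as a block (-1.47, 0.0229).

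EHF had the lowest log2 fold change in T>C reads of the well-counted members with CB-6644 at 12 h. Its T>C CPM in AsPC-1 DMSO 12 h libraries 1 to 4 were 239, 282, 141 and 128, and in CB-6644 libraries 1 to 4 150.2, 185, 49.8 and 52.7. Each CB-6644 library was lower than the DMSO library of the same number, in 4 of 4, and libraries 1 and 2 of both groups belonged to set A and libraries 3 and 4 to set B. How many of all genes were lower in 4 of 4 was not counted. EHF had a log2 fold change of -0.85 ± 0.46 (adjusted p = 0.998, 95% interval -1.76 to 0.06). With the replicate number as a block it was -1.01 (edgeR, unadjusted p = 0.00123, adjusted p = 0.555) and, after the data were seen, with the set as a block -1.01 (0.000354 and 0.204). At 4 h EHF changed by -0.29 ± 0.20 in AsPC-1 and by -0.17 ± 0.19 in T3M-4. ELF3 at 12 h changed by -0.50 ± 0.35 (-1.18 to 0.18), and its DMSO libraries held 426, 166, 155 and 170.1 T>C CPM, of which the first stood far above the other three. The CB-6644 effect at 12 h minus that at 4 h was -0.57 ± 0.49 for EHF and -0.57 ± 0.40 for ELF3, with 0 of 7 members called by edgeR or DESeq2, 0 at an unadjusted p under 0.05, and 0% (0 of 12720) of all genes called. Between the lines, the CB-6644 4 h effects differed for 0 of 7 members by either tool (0 at an unadjusted p under 0.05), with 0% (0 of 13963) of all genes called.

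The remaining members were not called with CB-6644 in T>C reads. In T>C reads of AsPC-1 at 4 h, ELF1 changed by -0.02 ± 0.15, ELF4 by 0.05 ± 0.25, ETS2 by -0.01 ± 0.21 and ETS1 by -0.33 ± 0.18. In T3M-4 the values were 0.01 ± 0.17 for ELF1, -0.32 ± 0.26 for ELF4, -0.20 ± 0.32 for ETS1 and -0.07 ± 0.24 for ETS2. The widest of these intervals, that of ETS1 in T3M-4, ran from -0.82 to 0.43, and changes within those bounds were not distinguished from 0. ETS1 T>C CPM in T3M-4 DMSO libraries were 94.4, 90.5, 154 and 159, low in both libraries of experiment 1 and high in both of experiment 2. At 12 h in AsPC-1, ELF1 changed by 0.11 ± 0.24, ELF4 by -0.33 ± 0.34, ETS1 by -0.23 ± 0.20 and ETS2 by -0.24 ± 0.23. ELF4 at 12 h held 68.9, 44.3, 95.6 and 94.7 T>C CPM in DMSO and 39.2, 38.1, 82.4 and 81.3 in CB-6644 libraries, with libraries 1 and 2 (set A) low and 3 and 4 (set B) high in both groups. ELF4, like EHF, was lower in CB-6644 than in the DMSO library of the same number in 4 of 4, and with the replicate number as a block changed by -0.36 (edgeR, adjusted p = 0.868).

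ETS1 was the 1 member whose labelled share passed a test with CB-6644. In AsPC-1 at 4 h the share of ETS1 was 39.6, 33.3, 29.6, 33.2 and 32.6% in the 5 DMSO libraries and 25.3, 17.6, 20.9, 22 and 21.4% in the 5 CB-6644 libraries. Every CB-6644 library was below every DMSO library, and the log2 odds fell by 0.90 ± 0.15 (limma, adjusted p = 0.0209). ETS1 was 1 of 7 members called (4 at an unadjusted p under 0.05, by limma), with 1.59% (221 of 13891) of all genes called. All-read CPM of ETS1 were 51 ± 9.38 in DMSO and 55.2 ± 6.13 in CB-6644 libraries, and T>C CPM 172 ± 39.6 and 136 ± 26.3. The library share moved too, from 10.1% to 8.51%. The groups differed in their make-up by set, with 1 CB-6644 and 2 DMSO libraries in A, 2 and 1 in B and 2 and 2 in C, and over the NEG and DMSO libraries of AsPC-1 the ETS1 share was 32.5 ± 4.16% in set A, 25 ± 4.64% in B and 27.4 ± 6.44% in C. With set and experiment as a block, fitted after the data were seen, the ETS1 share changed by -0.81 (adjusted p = 0.0241). Centred on the median gene of each library, ETS1 changed by -0.64 (adjusted p = 0.342), and leaving out 1 library at a time gave adjusted p from 0.0182 to 0.0618, above 0.05 without DMSO 1.2 or without CB-6644 1.2, 1.3, 2.1 or 2.2. ELF3 shares did not overlap either, at 34 to 37.6% in DMSO and 31.8 to 33.8% in CB-6644 libraries, for -0.22 ± 0.09 (adjusted p = 0.203). How many of all genes had shares without overlap was not counted.

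The ETS1 share was not called in the other CB-6644 comparisons. In T3M-4 it was 29.7 ± 2.5% with DMSO and 29.9 ± 4.48% with CB-6644 at 4 h, and in AsPC-1 at 12 h 29.3 ± 2.55% and 32.3 ± 1.53% (log2 odds 0.20 ± 0.13, adjusted p = 0.998). limma called 0 of 7 members in both comparisons, 0 at an unadjusted p under 0.05, with 0% (0 of 15761) and 0.0139% (2 of 14398) of all genes called. Whether the share effect differs between the lines or times was not tested.

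CDK9 inhibition was the broadest treatment. NVP-2 took the library share to 1.57% in AsPC-1 and 2.24% in T3M-4, from 10.1% and 12.4% with DMSO, so T>C CPM give a gene relative to the new RNA that remained. No spike-in set an absolute scale. On that scale ETS2 fell in both lines. In AsPC-1 its T>C CPM were 288, 449, 342, 654 and 509 in DMSO and 50.7, 65.7, 74.1 and 109 in NVP-2 libraries, with no overlap (log2 fold change -2.52 ± 0.31, adjusted p = 0.000197). In T3M-4 they were 467, 505, 775 and 734 in DMSO and 185, 262, 90.7 and 126 in NVP-2 libraries, again with no overlap (-1.86 ± 0.37, 0.00468). Within batches it was -1.05 in batch 1 of T3M-4 and -2.76 in batch 2 (adjusted p = 0.0421 and 0.00742). In all reads ETS2 fell too, with log2 fold changes of -2.10 ± 0.31 in AsPC-1 (adjusted p = 0.00195) and -0.97 ± 0.23 in T3M-4 (0.0443). The latter call was lost without any 1 of 7 of the 8 libraries and kept only without NVP-2 1.2 (adjusted p up to 0.133). Scaled by all-read totals instead, the median gene stood at -3.26 (AsPC-1) and -3.09 (T3M-4). All members tested were then called lower, 6 of 6 and 7 of 7, with EHF at -3.26 and ETS2 at -5.75 in AsPC-1. With that scaling 10829 of 11498 and 10680 of 12242 genes were called, so these member counts follow the background.

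In T>C reads of AsPC-1, 4 of 6 members passed, where 30.5% (3506 of 11498) of all genes were called. Beside ETS2 these were ETS1 (-1.18 ± 0.28, adjusted p = 0.00865), ELF1 (-0.97 ± 0.28, 0.0215) and ELF3 (-0.88 ± 0.28, 0.0324), all lower. ELF4 missed the threshold (-1.03 ± 0.39, 0.0625) and passed with DESeq2 (adjusted p = 0.0478), without NVP-2 2.1 (0.0223), with the replicate block (-1.15, 0.0474) and against the NEG libraries of experiment 3 with set as a block (-0.95, 0.027). The replicate block here pairs NVP-2 libraries with DMSO libraries of the other batch by number alone. EHF lay at -0.02 ± 0.30, with 233, 231, 164, 133 and 203 T>C CPM in DMSO and 211, 259, 89.6 and 161 in NVP-2 libraries, and the groups overlapped. With the NEG libraries of experiment 3, which share batch 2 with NVP-2, as controls in place of DMSO, ELF1 was no longer called (-0.73, 0.105), nor with the DMSO 12 h libraries, also batch 2 (-0.64, 0.205). With set as a block beside the NEG controls ELF1 was called (-0.74, 0.0473). ELF3, ETS1 and ETS2 kept their calls with both kinds of batch 2 control, ETS2 at -2.22 and -2.08. ELF3 lost its call without any 1 of 6 libraries (DMSO 1.1, 1.2 and 2.1, NVP-2 1.1, 1.2 and 2.2, adjusted p up to 0.0881), and ELF1 without DMSO 1.2 (0.0607).

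In T3M-4, 2 of 7 members passed in T>C reads, with 26.7% (3263 of 12242) of all genes called. ELF4 was the other beside ETS2, with 22.7, 38.7, 35.8 and 29 T>C CPM in DMSO and 7.62, 13.4, 3.73 and 19.6 in NVP-2 libraries and no overlap (-1.48 ± 0.48, adjusted p = 0.0444). The NVP-2 values of ELF4 rest on 10 to 58 reads, and its call was lost without any of 6 libraries (all but NVP-2 2.1 and 2.2, adjusted p up to 0.119), with another scaling (size factors, 0.054) and within either batch (0.0573 and 0.281). EHF split by batch, with 324, 148, 51.1 and 30.9 T>C CPM in NVP-2 libraries 1.1, 1.2, 2.1 and 2.2. Its log2 fold change was 0.26 in batch 1 (adjusted p = 0.667), -1.82 in batch 2 (0.0307) and -0.31 ± 0.60 over both. ELF3 changed by -0.44 ± 0.28, ELF1 by -0.88 ± 0.46 and ETS1 by -0.37 ± 0.31, none past the threshold. Between the lines, the NVP-2 effects differed for 0 of 6 members by edgeR or DESeq2 (0 at an unadjusted p under 0.05), with 0.851% (112 of 13159) of all genes called.

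In all reads 3 of 7 members fell in AsPC-1, where 11.8% (1667 of 14095) of all genes were called. No batch 2 control was set beside these AsPC-1 values, so they do not separate NVP-2 from batch. In T3M-4 1 of 7 fell, where 5.16% (807 of 15653) were called and 2476 genes with experiment as a block. ELF3 in AsPC-1 went from 64.3, 69.6, 36.2, 63.3 and 33.4 all-read CPM in DMSO to 12.1, 13.3, 14.2 and 13 in NVP-2 libraries, without overlap (-1.99 ± 0.25, adjusted p = 0.000828). ETS1 fell by 0.90 ± 0.20 on the log2 scale (0.0176, and 0.0568 without NVP-2 2.2), and ELF1 (-0.52 ± 0.24), ELF4 (-0.68 ± 0.40) and EHF (0.05 ± 0.31) did not pass. In T3M-4 the 1 member was ETS2, and ELF3 changed by -0.79 ± 0.26 (adjusted p = 0.146), a call it reached without NVP-2 1.2 (0.0148).

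The labelled share fell widely with NVP-2, and the median change was -3.29 in log2 odds in AsPC-1 and -3.43 in T3M-4. limma called 6 of 7 members in AsPC-1, all but SPDEF, and 7 of 7 in T3M-4, where 86.4% (12172 of 14095) and 81.8% (12810 of 15653) of all genes were called. The members differed in their share, which has all reads as its base. All reads with NVP-2 in AsPC-1 changed by -1.99 ± 0.25 for ELF3, -2.10 ± 0.31 for ETS2 and 0.05 ± 0.31 for EHF. In AsPC-1 NVP-2 libraries ELF3 held 9.53 ± 1.6% (96.9th percentile, median gene 1.65%), against 4.66 ± 1.52% for ETS2 and 2.58 ± 0.433% for EHF. In T3M-4 ELF3 held 7.69 ± 0.803% (92.9th percentile, median gene 2.15%), against 4.78 ± 2.85% for ETS2. Centred on the median gene of each library, ELF3 was 0.93 above the median change in AsPC-1 (adjusted p = 0.00976) and 0.20 above it in T3M-4 (0.691). ETS2 was at -0.82 in AsPC-1 (0.0411) and -1.75 in T3M-4 (0.00209). The centred share of ELF3 thus rose, and that of ETS2 fell, in AsPC-1, and ETS2 was the 1 member past the threshold in T3M-4. Shares in AsPC-1 were not set beside a batch 2 control, so they do not separate NVP-2 from batch.

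**Figure D4:**
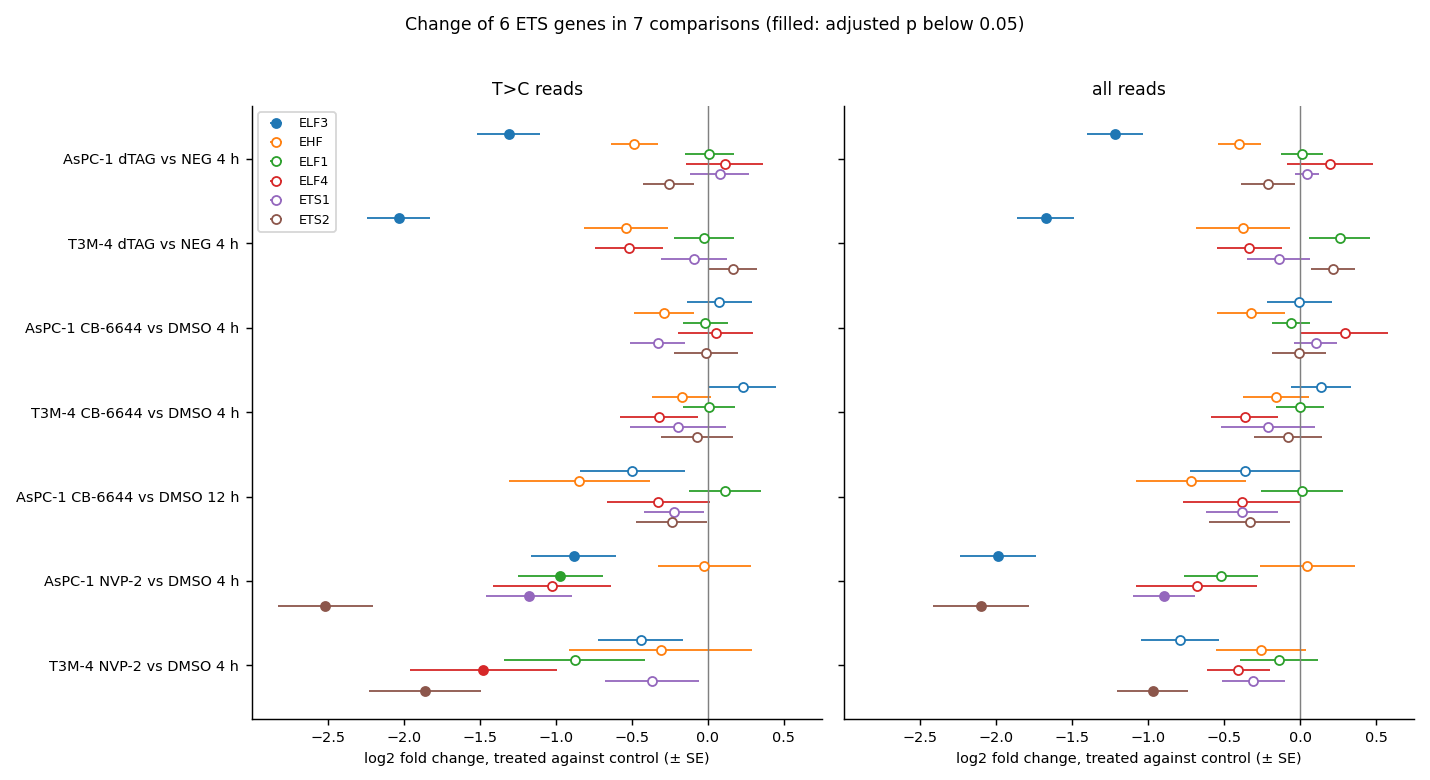
Log2 fold changes (x axis) of 6 ETS genes (colors) in the 7 treatment comparisons (rows), in T>C reads on the left and all reads on the right, with bars at 1 SE and filled points for an adjusted p under 0.05. In T>C reads ELF3 stands at -1.31 (AsPC-1) and -2.04 (T3M-4) after dTAG while the other points of those comparisons are open, and ETS2 stands at -2.52 and -1.86 with NVP-2.

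Between the lines, 2 of 7 members differed in DMSO 4 h libraries in T>C reads, with 48.4% (6311 of 13044) of all genes called, and the same number in all reads, with 55.7% (8617 of 15464) called. Both were lower in T3M-4. ELF3 differed by -0.84 ± 0.26 in T>C reads (adjusted p = 0.0198) and by -0.94 ± 0.25 in all reads (0.00803), and ELF4 by -0.93 ± 0.26 (0.0126) and -0.84 ± 0.27 (0.0201). ETS2 was higher in T3M-4 on average (0.60 ± 0.25, adjusted p = 0.0683) and passed with the first replicate number as a block (0.55, 0.0139) and between the NEG libraries (0.74, 0.00396). Equal numbers name separate experiments of the lines, so that block pairs nothing in the design. ETS1 changed sign with the controls used, from -0.33 between DMSO libraries to 0.11 between NEG libraries in T>C reads. Without T3M-4 DMSO 1.2 the ELF3 difference in T>C reads had an adjusted p of 0.0592, and without T3M-4 DMSO 1.1 the ELF4 difference in all reads 0.0576. EHF (0.03 ± 0.21) and ELF1 (0.21 ± 0.17) missed the threshold. Each line stands for 1 tumor, so these p-values cover the spread between libraries and not between tumors of a subtype.

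The 3 data-defined AsPC-1 sets differed in their ETS levels, given here as a description of the 19 NEG and DMSO libraries. Set C is experiment 2, so its levels do not separate set from experiment. ELF4 stood at 18.3 ± 6.59 all-read CPM in set A (n = 8), 37 ± 4.99 in set B (n = 7) and 27.9 ± 6.82 in set C (n = 4). EHF ran the other way, at 103 ± 23.4, 67.5 ± 10.1 and 81.7 ± 10.6, and ELF3 at 73.9 ± 20.7, 49.3 ± 8.22 and 58.4 ± 16.9. ETS2 was at 74 ± 20.1, 96.9 ± 24.5 and 111 ± 14.7, while ELF1 (18.8, 17.7 and 16.9) and ETS1 (45.1, 47.9 and 53.8) lay within a narrow band. SPDEF was at 1.01 ± 0.419 in set A, 0.0177 in set B and 0.359 in set C, on 48 to 302 reads in set A libraries and 0 to 14 in set B libraries. None of the 7 was among the 500 genes that defined the sets. dTAG and NEG libraries were spread over the sets alike, 4 in A, 4 in B and 2 in C in each group.

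**Figure D5:**
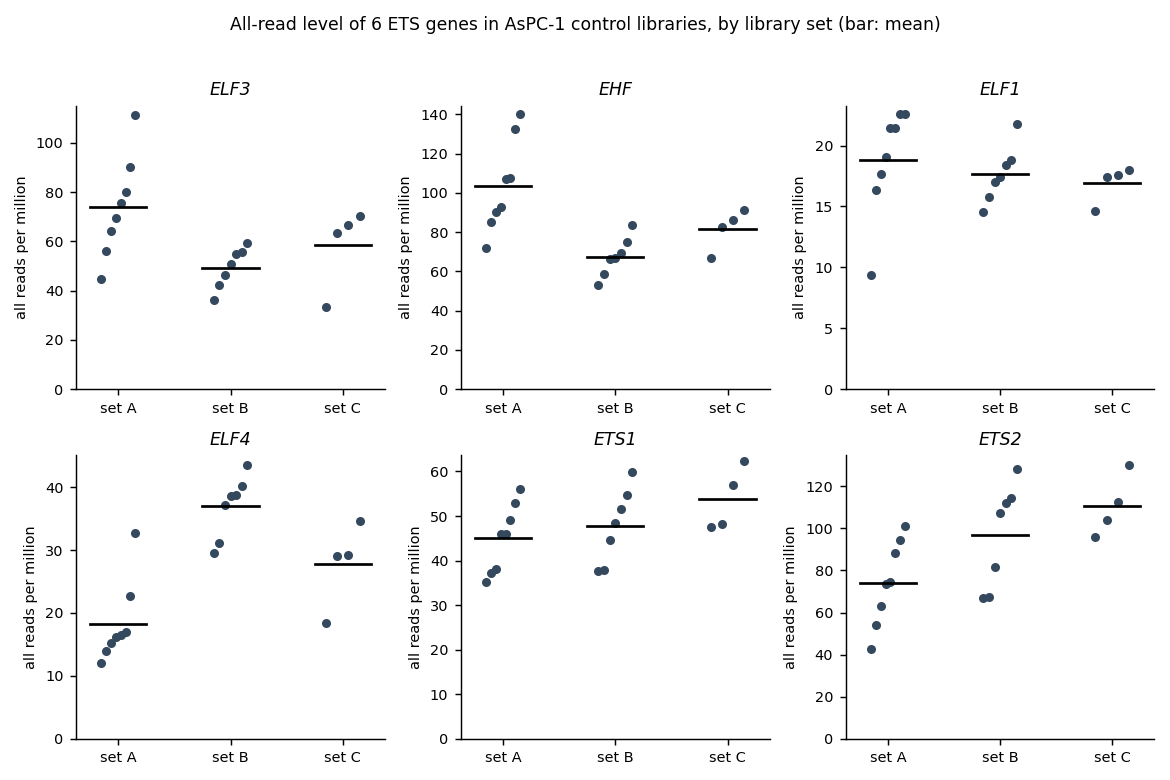
All-read CPM of 6 ETS genes in the NEG and DMSO libraries of AsPC-1 by data-defined library set (A, B and C), with 1 point per library, sorted by value, and bars at set means. ELF4 points of set B sit above those of set A on average (37 against 18.3) and EHF points below (67.5 against 103).

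The other 21 ETS family genes gave a frame for the 7. After dTAG, 0 of 12 tested in AsPC-1 and 0 of 13 in T3M-4 passed in T>C reads by edgeR (0 at an unadjusted p under 0.05), where 2.4% and 0.834% of all genes were called. Their median log2 fold changes were 0.11 and 0.09, beside -0.12 and -0.52 for the members tested and 0.03 and 0.01 for all genes. The member median of -0.52 in T3M-4 includes SPDEF, near the floor and not tested in AsPC-1, so the member medians cover different genes. With CB-6644 edgeR called 0 of 11 (AsPC-1, 4 h), 0 of 13 (T3M-4) and 0 of 11 (AsPC-1, 12 h), with 1 (ETV4 at 12 h) at an unadjusted p under 0.05 and 0% of all genes called in each. With NVP-2 in AsPC-1, 5 of 11 passed, where 30.5% of all genes were called. ERF, a repressor of ETS targets, fell by 3.71 ± 0.58 on the log2 scale, ELF2 by 2.01 ± 0.50 and ETV3 by 1.45 ± 0.40. ELK4, a serum response factor partner, rose by 1.76 ± 0.37 and ETV4, a PEA3-group factor, by 2.18 ± 0.38. In T3M-4, ERF (-2.60 ± 0.52) and ETV4 (2.09 ± 0.49) passed, 2 of 13, where 26.7% of all genes were called. The NVP-2 effect on ELK4 differed between the lines (-2.87 ± 0.58, adjusted p = 0.021), 1 of 13 tested, with 0.851% of all genes called. Between the lines in DMSO, 3 of 13 were higher (ETV6, ETV7 and FLI1) and 4 lower (ELK3, ELK4, ETV1 and ETV5) in T3M-4 in T>C reads, with 48.4% of all genes called. In all reads 5 of 16 were higher (those 3, ELF5 and SPIB) and 7 lower (those 4, ELF2, ETV2 and GABPA), with 55.7% of all genes called. With NVP-2 all reads of ELF2 (-2.34 ± 0.33), ETV3 (-2.21 ± 0.35) and ERF (-0.96 ± 0.25) fell in AsPC-1, 3 of 12, and those of ETV3 in T3M-4 (-1.63 ± 0.27), 1 of 16. Of all genes, 11.8% and 5.16% were called there. The labelled share of 3 of 12 fell after dTAG in AsPC-1, ERF (-0.33 ± 0.11), ETV1 (-0.71 ± 0.25) and ETV2 (-2.65 ± 0.84), where 32.4% of all genes were called. With NVP-2 that of 12 of 12 fell in AsPC-1 and of 14 of 16 in T3M-4, where 86.4% and 81.8% of all genes were called.

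Genes whose T>C pattern was most like that of a member were ranked by Pearson's r of log2 CPM over the libraries of a line without NVP-2, 38 in AsPC-1 and 16 in T3M-4, which share treatments, batches and, in AsPC-1, sets. For ELF3 they were C1orf116 (r = 0.851), HR (0.843) and EFNB1 (0.831) among 9860 genes in AsPC-1, and ALDH3B1 (0.944), B3GNT3 (0.943) and LMO7 (0.94) among 11099 in T3M-4. For EHF they were ZNF33A (0.763), ONECUT2 (0.756) and GPX8 (0.725) in AsPC-1, and NET1 (0.905), MAP3K8 (0.899) and CEACAM6 (0.898) in T3M-4. For ELF4 they were NAA60 (0.877), ADAM19 (0.827) and VGF (0.826) in AsPC-1, and KRT13 (0.908), MYH14 (0.905) and PDLIM1 (0.882) in T3M-4. For ETS2 they were TXNIP (0.874), H2AZ2 (0.863) and EML2 (0.86), and NDST1 (0.888), GANAB (0.883) and TAF1 (0.877). ETS1 was closest to SUN1 (0.762), ANXA3 (0.743) and MAFF (0.739) in AsPC-1 and to RNU4ATAC (0.972), YBX1 (0.971) and SNORA33 (0.964) in T3M-4, and ELF1 to TARS1 (0.753), TSEN15 (0.744) and MED10 (0.737) and to PPP1R15B (0.846), EREG (0.822) and ITCH (0.807). SPDEF, ranked in T3M-4 only and on few reads, was closest to CEP63 (0.84), ZNF684 (0.838) and GGACT (0.826). No gene was shared between the lines in these lists of 3. Among the members themselves, ELF3 and EHF had r = 0.42 in AsPC-1 and 0.41 in T3M-4, ELF1 and ELF4 -0.50 in AsPC-1, ELF3 and ELF4 0.60 and ELF1 and ETS1 0.67 in T3M-4.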

How the data were processed

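SLAM-seq 3′ end libraries of AsPC-1 and T3M-4 were analysed from the deposited raw counts of T>C reads and of all reads per gene, which the authors made with slamdunk, run with default parameters on hg38 and on 3′UTR exons from GENCODE v44, whose counts they summed per gene. Conversions in unlabelled cells, which set the background of T>C counts, were not analysed here, and no spike-in was used. The 7 members and all gene lists were chosen with earlier results of these data known. The genes to name were set as the 7 members, the called genes among 21 other ETS genes (those called in share with NVP-2 are given as counts only) and, for each member, the 3 genes of highest Pearson correlation (mean of at least 50 T>C reads).

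Counts were fitted per comparison in edgeR 4.0.16 (R 4.3.3; filterByExpr, TMM, quasi-likelihood test), with Benjamini-Hochberg adjustment over all genes tested and calls at an adjusted p under 0.05. Differences between effects were interaction terms. CPM used TMM scaling over all libraries of a line. The SE was taken from the F statistic (size of the log2 fold change over √F), and the 95% interval uses a normal quantile, so it is approximate. Labelled share was tested with limma 3.58.1 on the log2 odds of T>C against other reads (offset 0.5). Median shares and percentiles are over genes with a mean of at least 100 reads. Library sets came from Ward clustering of the 500 most variable genes (mean over 30 T>C reads) in the 38 AsPC-1 libraries without NVP-2, and each NVP-2 library was then given the nearer of A and B. The scripts were tested on simulated counts.

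Same-numbered dTAG and NEG libraries deviated together (r from 0.264 to 0.544 in AsPC-1, 0.167 to 0.453 in T3M-4), as did CB-6644 and DMSO libraries at 12 h (0.330 to 0.650) and in T3M-4 (0.163 to 0.435), the first number being the labelled batch in T3M-4. In AsPC-1 at 4 h r ran from -0.083 to 0.472 with CB-6644 and from -0.087 to 0.187 with NVP-2, and in T3M-4 with NVP-2 from 0.079 to 0.366. Same-numbered dTAG and NEG libraries of AsPC-1, and those at 12 h, also shared a data-defined set. Alternatives were DESeq2 1.42.0, other scalings and filters, blocks, batches and left-out libraries. Overlap of groups and agreement of same-numbered pairs were read for the members only, without the share over all genes. 1 all-reads column was left out, 0 columns with values were unmapped, and no pair of replicates agreed within sampling noise.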

Additional observations from a re-analysis of the deposited data

Results flagged for a closer look

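Of 244 groups of 4 to 10 libraries examined, 18 had a highest or lowest library past Dixon's 95% value, where chance gives about 1 in 20, or 12.2. No explanation was tested for any of them. ELF3 stood apart in AsPC-1 DMSO 12 h library 1, at 426 T>C CPM and 111 all-read CPM, with the nearest libraries at 170.1 and 50.8, so the 12 h change of ELF3 rests on that control. In T3M-4 dTAG library 2.1 ELF3 was lowest at 23.7 T>C CPM, next to 31.6, and in T3M-4 NVP-2 library 1.2 highest at 26.8 all-read CPM, next to 14.3. AsPC-1 CB-6644 4 h library 1.1, the 1 library of that group in set A, stood apart for 5 quantities: ELF1 (60.2 T>C CPM, next 48.6), ETS1 (182, next 128), EHF (117 all-read CPM, next 70.9), the EHF share (14.8%, next 19.6) and SPDEF (0.433 T>C CPM, next 0). EHF was also highest in AsPC-1 DMSO 12 h library 2 (133 all-read CPM, next 71.9) and NEG library 1.1 (140.03, next 92.6). ELF4 was at 164 T>C CPM in AsPC-1 dTAG library 3.3, next to 88.7, ETS1 at 149 in AsPC-1 CB-6644 12 h library 1, next to 119.8, and ELF1 at 29.7 all-read CPM in T3M-4 dTAG library 1.2, next to 17.2. The others were SPDEF values on few reads: 0.931 T>C CPM in AsPC-1 NVP-2 library 1.2 and 1.76 in T3M-4 NVP-2 library 1.1, where the other libraries were at 0, and shares of 62.5% in T3M-4 DMSO library 2.1 (next 18.6) and 4.48% in T3M-4 NVP-2 library 1.1 (next 0).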

How the results depend on the processing

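Over the member values recomputed under alternatives, 524 kept direction and side of the threshold, 68 lost the call, 23 gained it and 21 changed sign. After dTAG in AsPC-1, T>C reads gave 2 members called with scaling by all reads and 2 with set plus experiment blocked, 0 in batch 2 alone and 0 with counts summed per experiment, which was 0 in T3M-4 as well, while the sums blocked by experiment gave 1 in each line. With shares centred on each library's median gene, the counts were 0 after dTAG and CB-6644 at 4 h in AsPC-1, and 2 (AsPC-1) and 1 (T3M-4) with NVP-2. T3M-4 NVP-2 T>C reads gave 1 member with size factors, 7 with scaling by all reads and 1 in batch 1 alone. Between lines the replicate block, which matches experiments by number alone, gave 4 in T>C reads, and the NEG libraries gave 4 in all reads. The dTAG effect minus the CB-6644 effect in AsPC-1 gave 1 with DESeq2 and 1 with the replicate block. The replicate block changed no other count of members by over 1.5 times. The causes were not tested.

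Leaving out 1 experiment gave 0 to 1 members in T>C reads and in all reads and 0 to 5 in share for AsPC-1 dTAG (lowest without experiment 1 in each). Leaving out 1 library gave 0 to 0 in all reads of T3M-4 dTAG, 0 to 1 in the AsPC-1 CB-6644 4 h share, 2 to 5 (lowest without DMSO 1.2) and 1 to 2 in T>C reads with NVP-2 in AsPC-1 and T3M-4, 0 to 2 in all reads of T3M-4 NVP-2 (2 without NVP-2 1.2), and between lines 1 to 3 in T>C reads (lowest without T3M-4 DMSO 1.2) and 1 to 2 in all reads (lowest without T3M-4 DMSO 1.1). Signs turned for EHF T>C reads in AsPC-1 NVP-2, which was 0.033 with DESeq2, 0.042 with size factors, 0.28 with experiment 3 NEG controls, with or without the set block, and -0.27 to 0.19 without 1 library (0.077, 0.079 and 0.016 without DMSO 1.1, 1.2 and 2.2, 0.19 and 0.018 without NVP-2 2.1 and 2.2). They also turned for the centred NVP-2 shares of ELF3 (0.93 in AsPC-1, 0.20 in T3M-4) and EHF (0.034 in AsPC-1), for batch 1 of T3M-4 NVP-2 (EHF 0.26, ETS1 0.089), and for ETS1 between lines (T>C reads 0.11 with NEG libraries; all reads 0.032 with DESeq2, 0.33 with NEG libraries and -0.12 to 0.091 without 1 library, with 0.023 and 0.069 without AsPC-1 DMSO 2.1 and 2.2 and 0.091 and 0.088 without T3M-4 DMSO 1.1 and 1.2).

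Counts over all genes moved more than the members. T>C reads of AsPC-1 dTAG gave 281 genes, against 495 with DESeq2, 447 with the experiment block, 867 with the whole label as a block, 911 with the set and experiment block, 941 scaled by all reads, 103 in batch 1 and 16 in batch 2, and T3M-4 dTAG 112 against 352 (DESeq2), 354 (experiment block), 292 (summed per experiment, blocked) and 38 in batch 1. Summed without the block both gave 0 (edgeR, 815 and 501 at an unadjusted p under 0.05). In all reads the counts were 111 against 229 (DESeq2), 229 (experiment block) and 767 (set and experiment block), and 3 against 73 and 84. T3M-4 NVP-2 all reads gave 807 against 1470 (DESeq2) and 2476 (experiment block), and the AsPC-1 all reads 1667 against 2769 (DESeq2). Scaling NVP-2 T>C reads by all reads called 10829 and 10680 genes. Centring shares left 102 genes of 4515 after dTAG and 1 of 221 with CB-6644 at 4 h in AsPC-1 (140 with the set and experiment block), and 3357 of 12172 and 3418 of 12810 with NVP-2, and gave 67 in place of 34 after dTAG in T3M-4 (95 with the experiment block). Between effects DESeq2 and the block gave 37 and 29 genes for dTAG by line (6 otherwise), 603 and 225 for NVP-2 by line (112), 49 and 38 for dTAG minus CB-6644 in AsPC-1 (4) and 141 and 180 in T3M-4 (23). NVP-2 libraries were the shallowest in T>C reads, which limits SPDEF and ELF4 there.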
